A study of Mus musculus with 7 samples.

Results

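The 4 steroid A-ring reductase genes of the mouse, Akr1d1, Srd5a1, Srd5a2 and Srd5a3, were followed through the development of the adrenal gland. They were taken by symbol from a table of 35976 gene symbols, and all 4 were found and passed the filter on low values. The set was put together because the adult male and female pools were known to differ in opposite directions for Akr1d1 and Srd5a2. Values of those 2 genes that set the 12-week sexes against each other are therefore descriptions and carry no test, and the same holds for the other 2 genes.

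Whole adrenal glands were taken from mice of the inbred strain C57BL/6J, and their RNA was sequenced, with no allele or agent named for any group. The 7 libraries were embryonic day E18.5 (1 pool of 40 glands, sex not determined), postnatal day P1 male (16 glands) and female (22 glands), 2 weeks male and female (6 glands each) and 12 weeks male and female (4 glands each). Each group was 1 pool, so no group had a replicate. Intervals given below cover counting error alone, and p-values measure the spread left between pools once age and sex are fitted. With 1 pool per age and sex, that spread includes any sex difference that changes with age, for every gene.

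Steroid hormones such as progesterone, testosterone, aldosterone and corticosterone carry a double bond in their A ring, and its reduction is a main route of their metabolism. Akr1d1 encodes steroid 5-beta-reductase, an aldo-keto reductase that gives the bent 5-beta product and also serves bile acid synthesis in the liver. Srd5a1 and Srd5a2 encode steroid 5-alpha-reductases, membrane enzymes that give the flat 5-alpha product and turn testosterone into the stronger androgen dihydrotestosterone. Srd5a3 belongs to the same family and is best known for the reduction of polyprenol to dolichol, the lipid carrier of N-glycan assembly.

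The genes lie on separate chromosomes of GRCm38 (GENCODE vM21, Ensembl identifiers in brackets). Akr1d1 (ENSMUSG00000038641) spans 37530173 to 37568815 of chromosome 6 on the plus strand, and Srd5a3 (ENSMUSG00000029233) spans 76140271 to 76155504 of chromosome 5 on the plus strand. Srd5a1 (ENSMUSG00000021594) spans 69573449 to 69611442 of chromosome 13, and Srd5a2 (ENSMUSG00000038541) spans 74016955 to 74047916 of chromosome 17, both on the minus strand. Srd5a1 lies within Nsun2, a gene of the opposite strand with which it shares 0 exon bases. Transcripts annotated on the same strand as Gm17108 and CT025731.1 share 476 of the 2644 exon bases of Srd5a1 and 144 of the 1605 of Srd5a2. How reads in these shared stretches were counted is not given in the sources used here.

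For 3 of the genes the sequence just before the start site is shown, because the level of Akr1d1 and Srd5a2 differed so widely between the libraries while that of Srd5a3 differed little. The sequences are RefSeq's for GRCm38.p6, printed 5′ to 3′ on each gene's own strand and ended before the first base that either annotation places in the transcript. Capitals mark AGGTCA, a core site shared by many nuclear receptors (read as TGACCT where it lies on the opposite strand), and GGGCGG, the GC box (read as CCGCCC there).
Akr1d1, plus strand, chr6:37529923-37529977: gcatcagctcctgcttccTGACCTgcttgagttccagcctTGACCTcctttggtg
Srd5a2, minus strand, chr17:74047917-74048110: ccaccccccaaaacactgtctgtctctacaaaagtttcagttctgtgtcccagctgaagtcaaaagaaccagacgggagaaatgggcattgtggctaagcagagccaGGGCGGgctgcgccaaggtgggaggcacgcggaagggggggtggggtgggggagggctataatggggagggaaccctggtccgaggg
Srd5a3, plus strand, chr5:76140023-76140270: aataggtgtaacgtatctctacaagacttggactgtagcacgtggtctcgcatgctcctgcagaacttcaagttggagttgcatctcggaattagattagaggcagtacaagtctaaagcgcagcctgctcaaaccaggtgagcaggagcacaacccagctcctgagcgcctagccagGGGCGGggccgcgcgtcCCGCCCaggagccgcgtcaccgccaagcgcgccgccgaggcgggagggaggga

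The 4 promoters differed in their CpG content. Over the 250 bases before the start site, Akr1d1 had 1 CpG, an observed-to-expected ratio of 0.0806, and 12.4% of 27025 promoters had a lower ratio. The ratio was 0.501 for Srd5a2, 0.802 for Srd5a1 and 0.826 for Srd5a3, and 59.1%, 81.1% and 82.9% of promoters were lower. RefSeq's gene table starts Akr1d1 at 37529978, so by that start only the 55 bases printed above lie before the gene and the rest of its window lies within it. The Akr1d1 window held AGGTCA at 2 places, with first bases at -232 and -210 from the table's start site, and 13.84% of all such windows held it at least once on either strand. GGGCGG was found in the windows of the 3 Srd5a genes and in 32.94% of all windows. The Nr5a1 core AAGGTCA was not in any of the 4 windows, and neither was the steroid receptor site AGAACA. The TATA box searched as TATAAA was also in none of them, and the CCAAT box was in that of Srd5a1 alone. Of all windows, 4.05%, 16.2%, 13.0% and 34.5% held these motifs. Both strands were searched, and AGGTCA lies within AAGGTCA. A match of letters is a description of these windows.

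Total reads in genes ranged from 15184210 (12-week male) to 23551289 (P1 male). The 8 adrenal cortex markers (Star, Cyp11a1, Cyp11b1 and others) were present in every library, with sums between 249111 and 1124170 normalized counts. A normalized count is the number of reads divided by 1 size factor per library. The library labelled P1 female held RNA of 4 Y-linked genes, whose median share of the level in P1 males was 21.02% (from 15.6 to 28.1%), against 0.0609% in the 2-week and 0.0132% in the 12-week female library, so it goes against its label. The P1 and E18.5 libraries also held RNA of neighbouring organs. The 9 liver markers summed to between 275234 and 387597 normalized counts there and to between 2728 and 36334 at 2 weeks and 12 weeks, and kidney and skeletal muscle markers were likewise highest before 2 weeks.

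Akr1d1 was present from before birth, was higher at 2 weeks than at P1, and at 12 weeks was among the most abundant transcripts of the female gland and nearly missing from the male gland. Its level was 945.2 normalized counts at E18.5, then 1364 in P1 males, 1447 in the library labelled P1 female, 5393 in 2-week males, 8807 in 2-week females, 5.59 in 12-week males and 34772 in 12-week females. The 12-week male value rested on 4 reads, with an exact Poisson interval of 1.52 to 14.3 normalized counts (95%), and the female value on 30734 reads. The male pool was thus far below all earlier libraries, and the female pool above all of them. The female-to-male ratio at 12 weeks was 6217 (exact binomial interval 2428 to 22821). No other of the 16720 genes analysed had a more negative male-minus-female difference at that age, where Akr1d1 stood at -12.36 on the log2(normalized count + 1) scale.

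Srd5a2 had the opposite adult pattern, in which the male pool stood apart. Its level was 95.8 normalized counts at E18.5, then 139.9 in P1 males, 134.7 in the library labelled P1 female, 476.8 in 2-week males, 508.2 in 2-week females, 34433 in 12-week males and 1471 in 12-week females. Both adult pools were above every earlier library. The male-to-female ratio at 12 weeks was 23.4 (exact binomial interval 22.1 to 24.8), from 24628 reads in males and 1300 in females. The log2 difference was 4.55, and 9 of the 16720 genes had a more positive one.

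**Figure D1:**
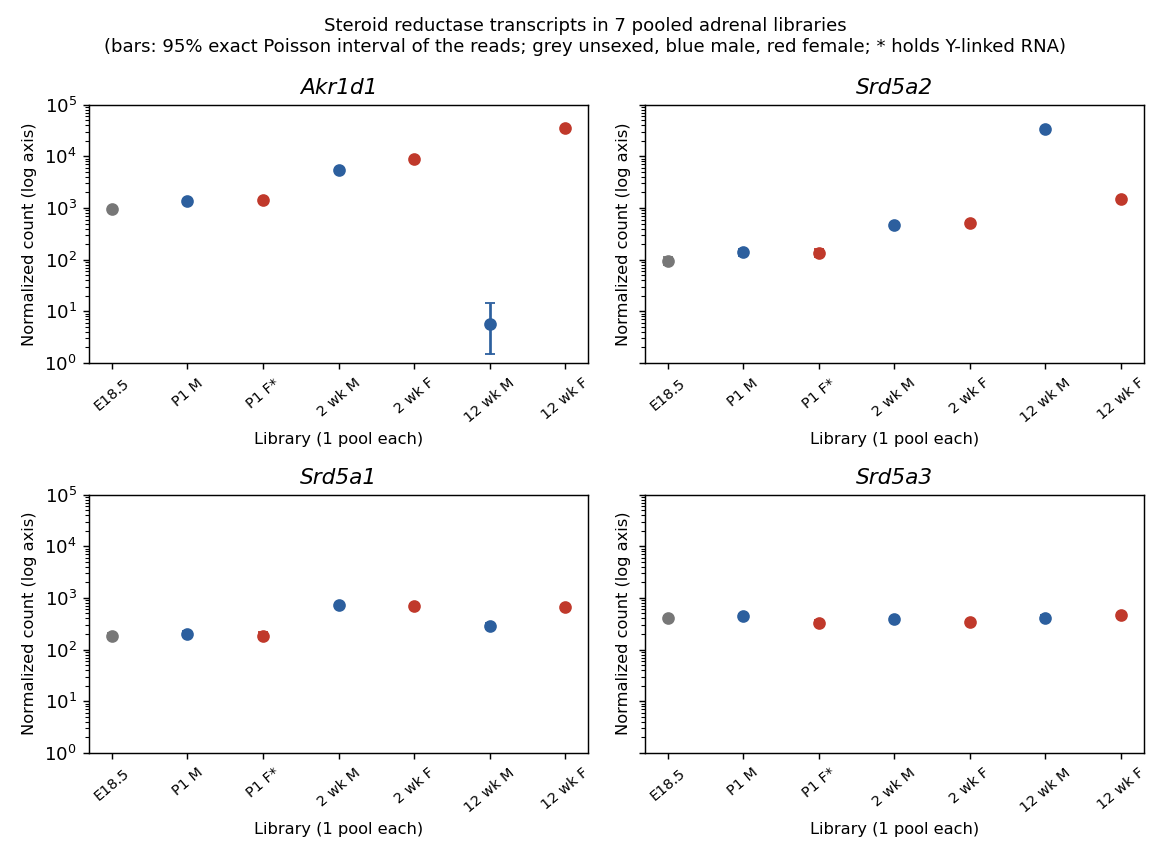
Normalized counts (log axis) of Akr1d1, Srd5a2, Srd5a1 and Srd5a3 in the 7 libraries, 1 pool each, with 95% exact Poisson intervals of the reads as bars; grey is the unsexed embryonic pool, blue male, red female, and the star marks the library labelled P1 female, which held Y-linked RNA. Akr1d1 is at 5.59 in the 12-week male pool and at 34772 in the 12-week female pool, Srd5a2 is at 34433 in the 12-week male pool, and Srd5a3 stays between 330.0 and 459.3.

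Srd5a1, the other 5-alpha-reductase with a steroid substrate, kept to a narrower range than Srd5a2 and did not follow it at 12 weeks. Its range over the libraries was still wider than that of 74.9% of genes. Its normalized counts were 183.2 at E18.5, 203.7 in P1 males, 184.3 in the library labelled P1 female, 725.9 in 2-week males, 702.3 in 2-week females, 290.8 in 12-week males and 680.0 in 12-week females. The 12-week male pool lay between the P1 and the 2-week pools, and the 12-week female pool was close to both 2-week pools. The female-to-male ratio at 12 weeks was 2.34 (exact binomial interval 1.99 to 2.75), and 425 of the 16720 genes had a more negative male-minus-female difference. Among neighbours in the order of levels, E18.5, the library labelled P1 female and P1 male could not be separated by their counting intervals, nor could 12-week female, 2-week female and 2-week male.

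Srd5a3 had the narrowest range of the 4. Its normalized counts were 410.0 at E18.5, 442.7 in P1 males, 330.0 in the library labelled P1 female, 391.4 in 2-week males, 345.0 in 2-week females, 413.9 in 12-week males and 459.3 in 12-week females. In the order of levels no neighbours could be separated by their counting intervals, while libraries further apart could, such as 12-week and 2-week females at a ratio of 1.33 (1.16 to 1.53). The range over all libraries was 0.48 log2, smaller than that of all but 10.5% of genes. The corresponding ranges were 12.36 for Akr1d1, 8.47 for Srd5a2 and 1.98 for Srd5a1, and 3 genes had a wider range than Akr1d1. At 12 weeks the male-to-female ratio of Srd5a3 was 0.901 with an interval of 0.773 to 1.05.

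Of the 4 genes, 3 were at least 2-fold apart between the 12-week pools, Akr1d1 and Srd5a1 higher in the female pool and Srd5a2 in the male pool. Over all genes 8.83% were at least 2-fold apart, 4.84% higher in the male and 3.98% in the female pool. The set was chosen on this contrast, so nothing is read from that count.

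**Figure D2:**
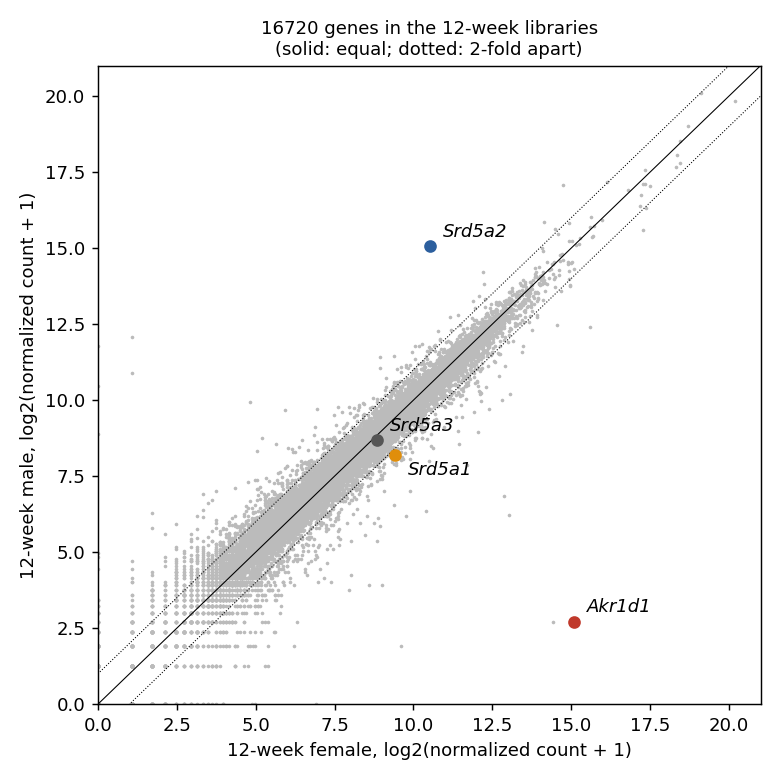
Each grey point is 1 of 16720 genes, plotted by its level in the 12-week female (x) and 12-week male (y) library, both as log2(normalized count + 1), with a solid line at equal levels and dotted lines at 2-fold. Akr1d1 is far below and Srd5a2 far above the cloud, Srd5a1 lies just below the lower dotted line, and Srd5a3 lies close to the line of equal levels.

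Levels of different genes were compared after division by exon length, as RPKM, in which the reads of a gene are divided by its exon length and by all reads in genes. Before 12 weeks Akr1d1 was the highest of the 4 in every library, from 18.2 RPKM at E18.5 to 166.8 RPKM in 2-week females. In the 12-week female pool it stood at 589.9 RPKM, with 26 of 15458 genes above it, against 0.0976 RPKM in the male pool. Srd5a2 reached 1011 RPKM in the 12-week male pool, with 20 genes above it, and 42.0 RPKM in the female pool. Srd5a1 lay between 3.42 and 14.7 RPKM, and Srd5a3 between 8.02 and 11.4 RPKM, over the 7 libraries.

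The balance between the 5-alpha genes was different in the adult pools. From E18.5 to 2 weeks Srd5a2 supplied between 46.3% and 54.6% of the summed RPKM of Srd5a1 and Srd5a2, so the 2 genes were close to each other. At 12 weeks its share was 99.5% in males and 78.1% in females. Akr1d1 was between 2.72 and 5.60 times that sum at all ages up to 2 weeks and 10.98 times in 12-week females. In 12-week males the sum was 1016 RPKM and Akr1d1 0.0976 RPKM. These are transcript levels, and enzyme activity was not measured.

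Before 12 weeks the 4 genes were less than 2-fold apart between the sexes. At P1, where the library labelled P1 female held Y-linked RNA, the female-to-male ratio of Akr1d1 was 1.06 (0.986 to 1.14) and the male-to-female ratio of Srd5a2 was 1.04 (0.819 to 1.32). At 2 weeks Akr1d1 was 1.63 times higher in females (1.58 to 1.69), and the ratio of Srd5a2 was 0.938 (0.833 to 1.06). Srd5a3 was 1.34 times higher in P1 males than in the library labelled P1 female (1.16 to 1.55), and its interval at 2 weeks held 1. None of the 4 genes was 2-fold apart at either age, where 6.78% (P1) and 4.24% (2 weeks) of all genes were. The P1 libraries differed in RNA of other cells. At least 2-fold higher in P1 males were 7 of 8 kidney, 5 of 5 tested exocrine pancreas and 3 of 8 adrenal cortex markers. In the library labelled P1 female these were 4 of 6 adipocyte, 2 of 6 chromaffin, 2 of 5 skeletal muscle and 1 of 9 liver markers. Their part in the P1 ratios was not tested. Markers of other cells were also higher in the 2-week female library. At least 2-fold higher there were 8 of 9 liver markers (sums 14932 in males and 36334 in females), both X-zone markers (5407 and 27450) and 5 of 5 skeletal muscle markers (114.8 and 4080). Their part in the 2-week difference of Akr1d1 was not tested.

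**Figure D3:**
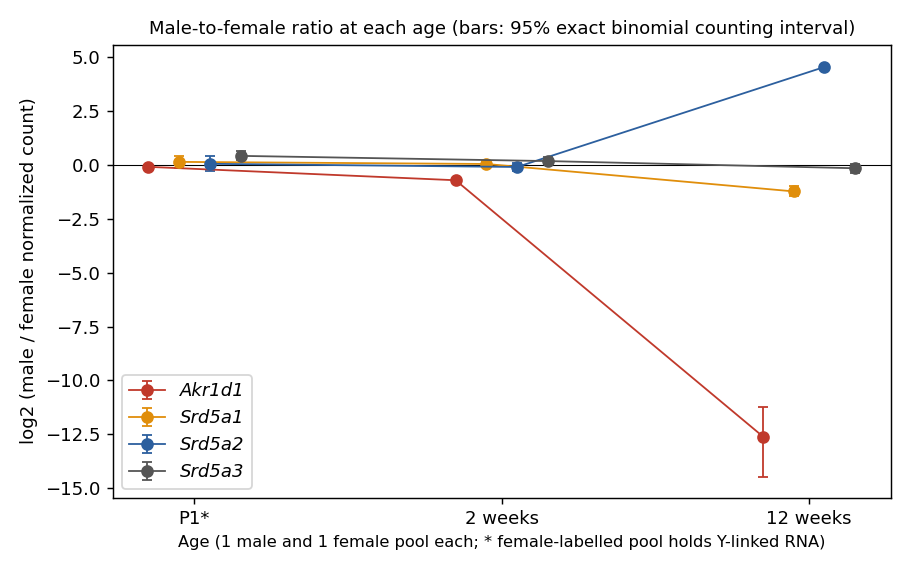
Male-to-female ratio of normalized counts (log2, y) at P1, 2 weeks and 12 weeks (x) for each gene, 1 pool per sex and age, with 95% exact binomial counting intervals as bars; the star marks the age whose female library held Y-linked RNA. All points lie near 0 at P1 and 2 weeks, with Akr1d1 lowest at 2 weeks, and at 12 weeks Akr1d1 and Srd5a1 lie below 0 and Srd5a2 above it.

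Whether sex made a difference before 12 weeks was tested in the 4 libraries of P1 and 2 weeks with age as a block. In limma 0 of the 4 genes passed an adjusted p of 0.05, against 0.156% of all genes, and all 4 also missed it in edgeR and DESeq2 on the recovered reads. At an unadjusted p under 0.05 limma had 828 genes, also with none of the 4. The male-minus-female difference of Akr1d1 was -0.40 ± 0.183 log2 (SE; limma adjusted p = 0.9996), lower in males at both ages. For Srd5a3 it was 0.30 ± 0.201 (limma adjusted p = 0.9996), higher in males at both ages. This fit rests on the library labelled P1 female, and without it no spread is left for a test. The 2-week ratios above do not use that library.

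Between P1 and 2 weeks, an interval the choice of genes did not use, Akr1d1, Srd5a1 and Srd5a2 were all higher at 2 weeks in both sexes. In males Akr1d1 was 3.95 times (3.74 to 4.18), Srd5a1 3.56 times (3.09 to 4.12) and Srd5a2 3.41 times (2.86 to 4.07) its P1 level. In females, against the library labelled P1 female, the ratios were 6.09 (5.75 to 6.45), 3.81 (3.22 to 4.53) and 3.77 (3.10 to 4.63). So 3 of 4 genes were at least 2-fold higher in each sex, against 6.66% of all genes in males and 6.36% in females. For Srd5a3 the ratios were 0.884 (0.778 to 1.005) and 1.05 (0.897 to 1.22). Over the same step 6 of 6 adipocyte markers were at least 2-fold higher in each sex, with sums of 2889 in P1 males and 3008 in the library labelled P1 female against 36617 and 41365 at 2 weeks. X-zone markers were at least 2-fold higher for 1 of 2 in males and 2 of 2 in females. Of the 8 adrenal cortex markers 5 were higher at 2 weeks in males and 8 in females, 1 and 3 of them at least 2-fold. Cortex sums were 382066 in P1 males and 249111 in the library labelled P1 female, against 513879 and 519406 at 2 weeks. The part of these cells in the higher levels of Akr1d1, Srd5a1 and Srd5a2 was not tested.

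Age was tested over the 6 postnatal libraries with sex as a block, and for P1 to 2 weeks only Srd5a1 and Srd5a3 were counted. Of these, 1 passed, against 16.4% of all genes (5.89% higher and 10.5% lower at 2 weeks). Srd5a1 rose by 1.88 ± 0.341 log2 (SE; limma adjusted p = 0.0158). Akr1d1 had 2.29 ± 2.71 (limma adjusted p = 0.603), Srd5a2 1.83 ± 1.04 (adjusted p = 0.274) and Srd5a3 -0.06 ± 0.201 (adjusted p = 0.877). The error of Akr1d1 and Srd5a2 in that fit contains the gap between the 12-week pools on which they were chosen, so they were not counted. With either 12-week library left out, the differences stay the same and their error comes from the P1 and 2-week pools alone. Any fit with a library left out has 1 pool at an age and little spread, so p-values of such fits are not given. Calls were gained in some of these fits and lost in others, that of Srd5a1 without any single P1 or 2-week library. The difference of Srd5a1 stayed between 1.51 and 2.24 log2 over all alternatives. Its call was also lost without a trend in eBayes (limma adjusted p = 0.0609) and with no filter on low genes. Without the library labelled P1 female the difference of Akr1d1 turned to -0.93, and without 2-week male to -0.47. In these fits the sex difference at the age with a missing pool is taken from the other ages. The gap between the 12-week pools thus enters the estimate itself. Within each sex Akr1d1 was higher at 2 weeks, as given above.

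Liver marker RNA was lower at 2 weeks than at P1. The 9 liver markers summed to 387597 normalized counts in P1 males and 275234 in the library labelled P1 female, against 14932 and 36334 at 2 weeks, while Akr1d1, also a liver gene, was higher at 2 weeks. At 12 weeks the liver sum was 7263 in males and 2728 in females, of which Cyp2e1 made 6816 and 2306, and Hnf4a had 1.40 and 1.13 normalized counts. Alb was at 247.5 and 157.3, Ahsg at 103.5 and 196.9, and Afp at 2.80 and 29.4. The part of liver RNA in the Akr1d1 levels was not tested. In bulk tissue, fewer cells of a type and less RNA per cell cannot be told apart.

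The mouse X-zone, an inner cortical zone that is lost in males at puberty and kept longer in females, was followed through its markers Akr1c18 and Pik3c2g. The level of Akr1c18 was 283.1 normalized counts at E18.5, then 810.9 in P1 males, 826.8 in the library labelled P1 female, 5346 in 2-week males, 26949 in 2-week females, 2.80 (2 reads) in 12-week males and 773.9 in 12-week females. Pik3c2g had 60.5 in 2-week males, 500.2 in 2-week females, 0 in 12-week males and 28.3 in 12-week females. Both markers were thus lowest in the 12-week male pool, as Akr1d1 was, and their sum was 27450 in 2-week and 802.1 in 12-week females, an interval over which Akr1d1 was 3.95 times higher at 12 weeks (3.86 to 4.04). The part of the X-zone in the Akr1d1 levels was not tested.

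**Figure D4:**
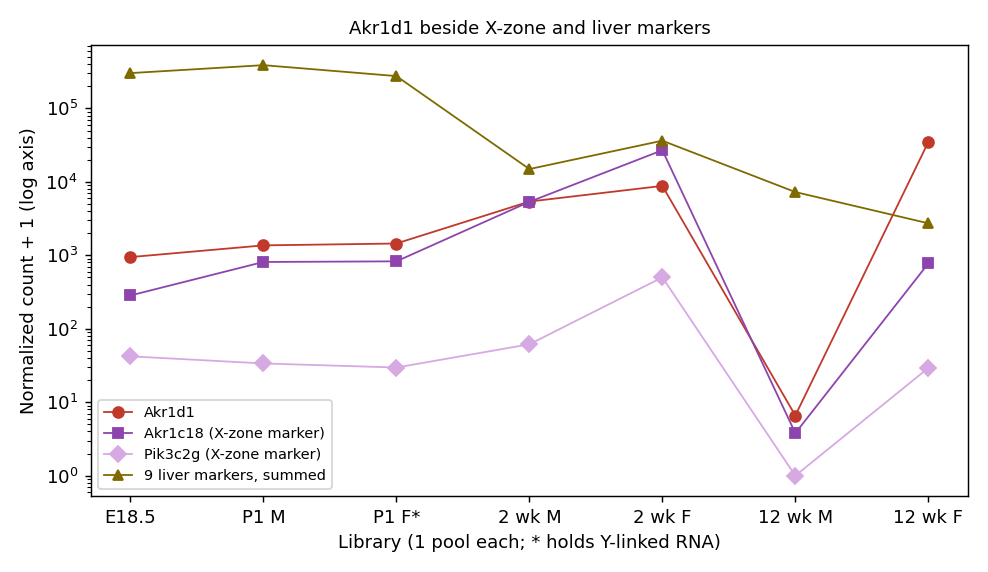
Normalized count + 1 (log axis, y) of Akr1d1, of the X-zone markers Akr1c18 and Pik3c2g and of 9 summed liver markers in the 7 libraries (x), 1 pool each, with lines joining the libraries for reading only; the star marks the library labelled P1 female. Akr1d1 and both X-zone markers are lowest in 12-week males, only Akr1d1 is highest in 12-week females, and the liver sum is lower in the 2-week than in the P1 libraries.

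Markers of other tissues were set beside Srd5a2, which is well known from the male reproductive tract. The 5 epididymal markers (Crisp1, Lcn5, Lcn8, Adam7 and Rnase10) summed to at most 12.5 normalized counts in any library, and all 5 had no more than 3 reads in either 12-week library. The 6 adipocyte markers summed to 23127 normalized counts in the adult male and 13983 in the adult female pool, and the sums at P1 and 2 weeks are given above. The adipocyte part in the Srd5a2 levels was not tested.

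From 2 weeks to 12 weeks Akr1d1 and Srd5a2 differed in opposite directions in males. In males Akr1d1 was 964 times lower at 12 weeks (376 to 3540) and Srd5a2 72.2 times higher (66.3 to 78.8), and no other gene had a more positive difference than Srd5a2 over that interval in males. In females both were higher at 12 weeks, Akr1d1 3.95 times and Srd5a2 2.89 times (2.62 to 3.20). Srd5a1 was 2.50 times lower at 12 weeks in males (2.14 to 2.92), and in females its ratio was 0.968 (0.869 to 1.08). At least 2-fold apart were 3 of the 4 genes in males and 2 in females, against 21.1% and 20.5% of all genes. These values use the 12-week pools on which the set was chosen.

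For Srd5a1 and Srd5a3 the age fit was also read for the steps that end at 12 weeks. From 2 weeks to 12 weeks 0 of these 2 genes passed in limma, against 15.3% of all genes (5.4% higher and 9.89% lower at 12 weeks). The difference was -0.68 ± 0.341 log2 (SE; limma adjusted p = 0.221) for Srd5a1 and 0.25 ± 0.201 (adjusted p = 0.443) for Srd5a3, and neither had an unadjusted p under 0.05, where 5434 of all genes did. From P1 to 12 weeks 1 of the 2 passed, against 41.2% of all genes (17.6% higher at 12 weeks). Srd5a1 rose by 1.19 ± 0.341 log2 (limma adjusted p = 0.0315), and Srd5a3 had 0.19 ± 0.201 (adjusted p = 0.482). The call of Srd5a1 was lost without P1 male, the library labelled P1 female, 2-week male, 2-week female or 12-week female. Each of these fits leaves 1 pool at an age, so their p-values are not given. It was also lost without a trend in eBayes (limma adjusted p = 0.0834) and with no filter on low genes (0.153). The difference of Srd5a1 stayed between 0.54 and 1.85 log2 over all alternatives. For Akr1d1 and Srd5a2, whose 12-week values chose them, the averages over the sexes are given without a test. They were -3.85 and 3.85 log2 from 2 weeks to 12 weeks, and -1.55 and 5.69 from P1 to 12 weeks. Without the 12-week male library the first of these was 2.14 for Akr1d1, and without the 12-week female library -9.83.

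Around birth the differences were smaller. From E18.5 to P1 males Akr1d1 was 1.44 times higher (1.34 to 1.56) and Srd5a2 1.46 times (1.15 to 1.87), and against the library labelled P1 female the ratios were 1.53 (1.41 to 1.66) and 1.41 (1.08 to 1.83). The intervals of Srd5a1 held 1 in both comparisons, and Srd5a3 was at 1.08 (0.954 to 1.22) and 0.805 (0.695 to 0.931) times its E18.5 level. None of the 4 genes was 2-fold apart, against 8.4% of all genes for P1 males and 13.2% for the library labelled P1 female.

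Hydroxysteroid dehydrogenases act on the products of these reductases and on the same hormones. Of 21 listed genes 16 were tested, and at 12 weeks 4 were at least 2-fold higher in the female and 0 in the male pool, with a list median of -0.07 log2 beside 0.02 over all genes. The shares of all genes past that fold were 3.98% towards the female and 4.84% towards the male pool, and the 12-week counts of the lists below stand beside the same shares. Akr1c18, which inactivates progesterone, was 277 times higher in females (76.3 to 2290). Hsd17b7, a ketosteroid reductase that also serves cholesterol synthesis, was at 314.6 normalized counts in the male and 633.6 in the female pool (ratio 2.01, 1.72 to 2.36). The other two were Akr1c14, with 28.0 and 62.2 normalized counts, and Hsd17b13, with 0 and 1 read, both named after their values were seen. Akr1cl, a relative of Akr1d1 within the aldo-keto reductases, had 23924 and 33509 normalized counts, and Hsd17b11 had 1871 and 1257.

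With age this list moved in both directions. Its age calls, like those of the lists below, rest on few libraries: over all genes limma passed 2737 for P1 to 2 weeks, 28 without the library labelled P1 female and 0 with no filter on low genes, and for 2 weeks to 12 weeks 2557, 1025 and 0. The shares of all genes that rose and fell were 5.89% and 10.5% for the first step and 5.4% and 9.89% for the second, and the age counts of each list stand beside these. Of the 16 genes 3 rose and 5 fell from P1 to 2 weeks in limma at an adjusted p of 0.05, and from 2 weeks to 12 weeks 1 rose and 6 fell. Akr1cl rose in both steps, by 1.16 ± 0.16 and 1.14 ± 0.16 log2 (SE; limma adjusted p = 0.00726 and 0.00705). Akr1c13 rose by 1.94 and Dhrs9 by 1.52 from P1 to 2 weeks, and Hsd17b13 fell by 4.23 and Hsd17b2 by 4.05, and liver marker sums were also lower at 2 weeks. Akr1c18 fell by 7.79 ± 1.54 from 2 weeks to 12 weeks (limma adjusted p = 0.0213), with a lower level at 12 weeks in both sexes.

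The next list held genes that supply and interconvert corticosteroids, the main A-ring substrates in this gland. Of 11 tested, 1 was at least 2-fold higher in each sex, with a list median of 0.05 log2. Cyp21a1, the steroid 21-hydroxylase, was at 81456 normalized counts in the adult male and 171261 in the adult female pool (ratio 2.103, 2.08 to 2.12), and Cyp11b1, which makes corticosterone, had 85022 and 150103. Hsd3b6, a 3-beta-hydroxysteroid dehydrogenase, was higher in males with 1699 against 555.5 (ratio 3.06, 2.75 to 3.40). From P1 to 2 weeks 3 rose and 0 fell in limma, Hsd3b6 by 3.28 ± 0.38 (adjusted p = 0.00471), Cyp11b2, the aldosterone synthase, by 1.51 and Hsd3b1 by 1.28. From 2 weeks to 12 weeks 1 rose and 1 fell. Hsd11b1, which regenerates active glucocorticoid, rose by 1.38 ± 0.24 (limma adjusted p = 0.0144). Cyp17a1, the steroid 17-hydroxylase, fell by 2.26 ± 0.46 (limma adjusted p = 0.0235) and was named after its values were seen.

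Bile acid synthesis is the hepatic pathway of Akr1d1. Of 14 genes tested 0 rose and 5 fell from P1 to 2 weeks in limma, and again 0 rose and 5 fell from 2 weeks to 12 weeks. The list median for the first of these steps was -1.04 log2, beside 0.003 over all genes, and leaving out a 12-week library cannot change it. It was -0.93 without P1 male, -0.75 without the library labelled P1 female, -0.87 without 2-week male and -1.32 without 2-week female. In the fit on all 6 libraries Cyp8b1, the sterol 12-hydroxylase, fell by 3.79 ± 0.39 log2 in that step (limma adjusted p = 0.00347) and Acox2, a peroxisomal oxidase, fell by 3.21. Cyp7a1, the rate-limiting enzyme of the pathway, went from 617.8 normalized counts in P1 males to 0 in 12-week males, and from 194.3 in the library labelled P1 female to 3.39 (3 reads) in 12-week females. The liver marker sum was lower in the same libraries, and the part of liver RNA in this list was not tested. At 12 weeks 2 genes were at least 2-fold higher in each sex, with a list median of 0.04 log2, and Cyp7a1 and Slc27a5 among them had no more than 3 reads in both pools. Cyp39a1, an oxysterol hydroxylase, had 153.8 and 74.7 normalized counts in males and females.

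Genes of dolichol and N-glycan precursor synthesis, the pathway of Srd5a3, were all within 2-fold in the adult contrast, as were most genes. Of 23 tested, 0 were 2-fold apart at 12 weeks, where 8.83% of all genes were, so nothing is read from that count. The list median was -0.19 log2. Dpagt1, which starts the lipid-linked glycan, was at 162.2 normalized counts in the male and 276.1 in the female pool (ratio 1.70, 1.36 to 2.14), and Dpm3, a subunit of dolichol-phosphate mannose synthase, had 251.7 and 170.8. With age 1 rose and 0 fell in each of the first 2 steps in limma, Alg14 by 0.77 ± 0.17 from P1 to 2 weeks (adjusted p = 0.0281) and Alg5 by 0.86 ± 0.21 from 2 weeks to 12 weeks (adjusted p = 0.0419). From P1 to 12 weeks 5 of 23 rose and 0 fell, where 17.6% of all genes rose. Tecr, a relative of the 5-alpha-reductases in fatty acid elongation, was at 3639 normalized counts in the adult male and 5244 in the adult female pool. Its relative Tecrl had 1 and 0 reads there.

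**Figure D5:**
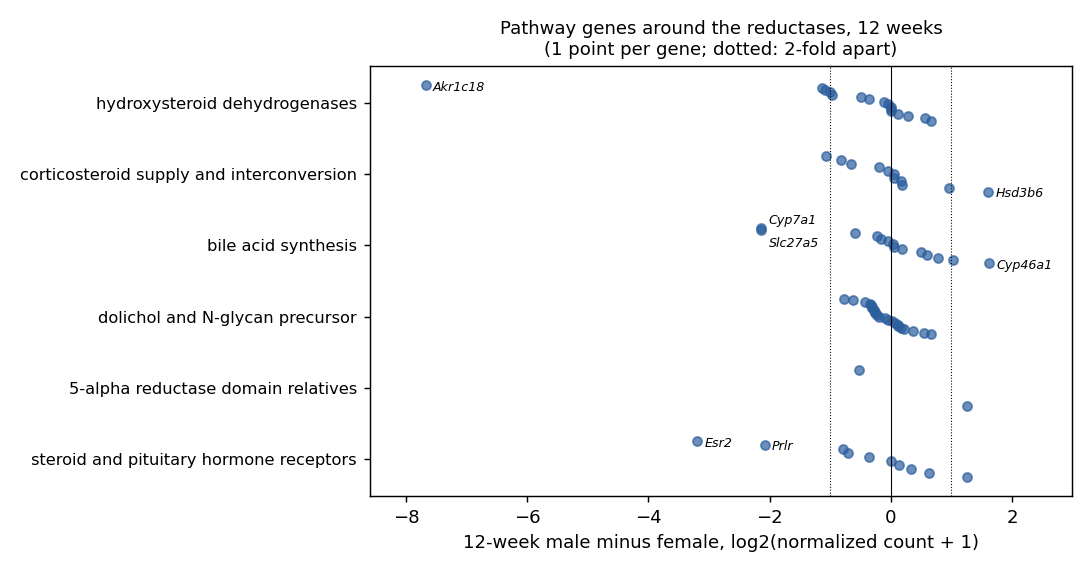
Difference between the 12-week male and female library (x, log2(normalized count + 1), positive when higher in males) for each tested gene of the 6 lists around the reductases (y), 1 point per gene, with dotted lines at 2-fold. Akr1c18 stands far to the female side, Hsd3b6 to the male side, and all 23 dolichol and N-glycan genes lie between the dotted lines; Cyp7a1 and Slc27a5 rest on no more than 3 reads.

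Receptors for the steroids concerned, and for the hormones that act on the gland, were also listed. Of 10 tested, 1 was at least 2-fold higher in males and 2 in females at 12 weeks, with a list median of -0.18 log2. The male one, Nr1i2, had 1 and 0 reads. Prlr, the prolactin receptor, was at 5679 normalized counts in the adult male and 23987 in the adult female pool (ratio 4.22, 4.08 to 4.37), and the other was Esr2 with 3 and 41 reads. For P1 to 2 weeks limma had 3 of the 10 higher and 2 lower. Nr3c2, the mineralocorticoid receptor, rose by 1.28 ± 0.26 log2 in that step (limma adjusted p = 0.0226), and Esr1, an oestrogen receptor, rose by 1.22 ± 0.22 (adjusted p = 0.0146). Nr1i2 and Nr1i3, xenobiotic receptors of the liver, fell by 3.57 and 3.22, as the liver marker sums were lower, and the part of liver RNA in this was not tested. Nr3c1, the glucocorticoid receptor, was 1.55 times higher in 12-week males (1.45 to 1.65). From 2 weeks to 12 weeks 0 of the 10 receptors passed in limma.

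The genes whose pattern over the 7 libraries was most like that of each reductase were listed by Pearson's r of log2 values among 12254 genes. These correlations are descriptions over 7 points that share their libraries, and for Akr1d1 and Srd5a2 they rest mainly on the 12-week pools. Frzb, a secreted Wnt antagonist, was closest to Akr1d1 (r = 0.982), at 3903 and 3748 normalized counts in the 2-week male and female pools, 74.1 in 12-week males and 8345 in 12-week females. Next were Trp53i11, Pde8b, Nr0b1 and Nfkbib, and of these Nr0b1 had the widest range, from 46.1 in 12-week males to 349.6 in 12-week females. Closest to Srd5a2 were Wdr60 (r = 0.987), Samd8, Abcb1b, Slc5a6 and Eps15. Abcb1b, a drug efflux transporter, had the widest range of these, with 8431 in P1 males, 16437 and 19350 at 2 weeks, 137924 in 12-week males and 27248 in 12-week females. Pearson's r does not take the size of a change into account. The range over the libraries was 0.33 log2 for Nfkbib against 12.36 for Akr1d1, and 0.37 for Eps15 against 8.47 for Srd5a2.

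Srd5a1 was closest to Bdkrb2 (r = 0.997) and then Zbtb7b, which were likewise higher at 2 weeks than at P1 and lower in 12-week males than in 12-week females. Bdkrb2, the bradykinin B2 receptor, was at 1168 and 1086 normalized counts in the 2-week male and female pools, 693.5 in 12-week males and 1061 in 12-week females. Srd5a3 was closest to Rab22a (r = 0.946), Cep63 and Twf2, all of narrow range. Without the library labelled P1 female, 3 of the 5 genes listed for Akr1d1, 0 of 5 for Srd5a2 and 0 of 3 for Srd5a3 were listed again, and without E18.5 1, 1 and 0.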

How the data were processed

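Total RNA of 7 pooled adrenal libraries was sequenced in 1 run and lane, per the labels. The authors deposited normalized counts per gene, a signal that is whole reads divided by 1 size factor per library. No description of the unit was given, and 100% of the values came out as whole reads within 0.01 reads. The submitters' processing notes name CASAVA 1.8.2, HISAT2 2.1.0, HTSeq 0.9.1, DESeq2 2.11.40.6 and mm10. The annotation and the use of strand are not given in the sources used here.

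The members and gene lists were chosen with earlier results of these data known. A mean of at least 10 was required for a gene to be tested, which left 16720. Differences were taken between values of log2(normalized count + 1), so changes of low genes are understated. limma 3.58.1 in R 4.3.3 (lmFit, eBayes with trend, two-sided, Benjamini-Hochberg over all genes tested, threshold 0.05) was fitted to the 6 postnatal libraries with sex as a block, and to the 4 libraries of P1 and 2 weeks with age as a block. It was also run on simulated data with the same spread for every gene and no tissue differences between pools, so nothing is read from that run here. Single libraries were compared by ratios with 95% exact binomial intervals, and single values by exact Poisson intervals. Both cover counting error only, because they use the reads of single pools. Reads were not tied to single molecules, so even this error may be understated. The floor was set at 3 reads. RPKM was computed with GENCODE vM21 exon lengths for 15458 genes. Promoters came from RefSeq, where all 4 members matched. The labels do not say how animals or litters were divided among the pools, so the spread between them may be partly technical.

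Named from each list were up to 3 highest and 3 lowest differences among genes that reached 100 normalized counts in either library compared, past the threshold in age comparisons. Genes most alike were the highest 5 (Akr1d1, Srd5a2) or 3 by Pearson's r at a mean of at least 100. Alternatives changed the pseudocount, filter, scaling, trend, tool (edgeR 4.0.16, DESeq2 1.42.0 on recovered reads), fold limit or left out a library. A planned comparison of the proteins was not run, and protein sequences were not used here. Some genes that these rules select are not reported here.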

Additional observations from a re-analysis of the deposited data

Results flagged for a closer look

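Akr1d1 differed between the sexes in the direction of its change from 2 weeks to 12 weeks. The difference was -9.68 log2 in males, from 5393 to 5.59 normalized counts, and 1.98 log2 in females, from 8807 to 34772. It was picked out because the only male pair of pools moved one way and the only female pair the other. With 1 pool per sex and age the difference was not tested, and it includes the 12-week pools on which the gene was chosen.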

How the results depend on the processing

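No paired analysis was possible because each group was 1 library and the labels carry no replicate numbers. Of 216 alternative values of the member tests 175 kept their direction and side of the threshold, 16 no longer passed, 11 newly passed and 14 turned direction. Of 80 ratios between single pools 79 stayed within counting error, and Akr1d1 at 2 weeks moved to -0.64 log2 with equal totals. Of 444 list counts 342 stayed and 102 moved.

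With a library left out, Akr1d1 ranged from -0.93 to 5.52 log2 for P1 to 2 weeks, from -9.83 to 2.14 for 2 weeks to 12 weeks and from -7.54 to 4.43 for P1 to 12 weeks. Where a P1 or 2-week library was left out, its sex difference was taken from ages that include the 12-week gap. Srd5a3 ranged from -0.26 to 0.15 for P1 to 2 weeks and from -0.037 to 0.42 for P1 to 12 weeks. With edgeR and with DESeq2 Akr1d1 turned to 0.22 for 2 weeks to 12 weeks and to 2.34 for P1 to 12 weeks. The sex difference of Srd5a2 at P1 and 2 weeks turned to 0.053 with equal totals and 0.0038 with upper-quartile scaling.

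Members called are not counted here, since the age fits of Akr1d1 and Srd5a2 draw on the 12-week pools that chose them. The 2737 limma calls for P1 to 2 weeks became 0 (6431 unadjusted) with no filter, where more genes were tested, and 1672 without a trend, and ranged from 2 to 4461 with a library left out. The call of Srd5a1 was lost in both settings. For 2 weeks to 12 weeks 2557 calls became 0 (6036 unadjusted) with no filter and 1661 without a trend, and ranged from 421 to 3035 with a library left out. For P1 to 12 weeks 6881 calls ranged from 3207 to 6271 and the 2 members called from 0 to 3 with a library left out, and the members were 0 with no filter and 1 without a trend. The 26 calls of the sex fit became 10 with a pseudocount of 0.1, 5 with a pseudocount of 5, 0 with no filter (883 unadjusted), 9 at a mean of at least 50, 1 with equal totals, 1 with upper-quartile scaling, 0 without a trend (801 unadjusted), 16 with edgeR and 41 with DESeq2. Leaving out a library was not run there, since no spread would remain. The count at least 2-fold apart at 2 weeks was 709, and 455 with a pseudocount of 5, and at 12 weeks 1476, and 276 at 4-fold. edgeR on the recovered reads called 2795, 2396, 6754 and 16 genes. Except for the settings whose reason is given, the cause was not tested.

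Scaling to equal totals put the median over all genes at -0.20 log2 from 2 weeks to 12 weeks, where 20.5% of calls were then higher against 35.3%, and to -0.15 from P1 to 12 weeks. Depth limits the 12-week male level of Akr1d1, which rests on 4 reads. With 1 pool per group the spread between animals is not known.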
